A study of Homo sapiens with 4 samples.

Results

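The genes described here are 10 regulators of the alternative splicing that accompanies epithelial-mesenchymal transition (EMT): ESRP1, ESRP2, RBFOX2, QKI, PTBP1, PTBP2, MBNL1, MBNL2, CELF1 and RBM47. They were chosen by name, and all 10 were found among the 55764 gene names of the deposited expression table. The samples were 4 bulk RNA-seq libraries of TE5 cells, a line from human oesophageal squamous cell carcinoma. In 2 libraries (ETS1) the cells stably carried a lentiviral vector that expresses human ETS1, an ETS-family transcription factor, from a CMV promoter, and in 2 libraries (control) they carried the empty backbone. The labels do not say whether the cells were clones or pools, nor whether replicates 1 and 2 of a group were separate infections or cultures, so the spread between them may be technical.

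In EMT, epithelial cells loosen their junctions and take up mesenchymal features, and many transcripts switch exons while their overall level may stay the same. ESRP1 and ESRP2 are epithelial RNA-binding proteins that hold transcripts such as those of FGFR2, CD44, CTNND1 and ENAH in their epithelial forms, and ZEB and Snail family repressors are known to silence them. RBFOX2 and QKI promote mesenchymal exon choices, PTBP1 and its neural relative PTBP2 mostly block exons, MBNL1 and MBNL2 guide tissue-specific and developmental exon use, CELF1 often acts against MBNL proteins, and RBM47 is an epithelial splicing and mRNA-stability factor. The tables hold 1 value per gene, so they measure how much RNA of each regulator there was and not which exons were used.

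Levels are in FPKM, read fragments counted per kilobase of a gene and scaled to the size of the library. Whole reads recovered from them summed to 40356741 and 44119636 in the controls and to 57270012 and 56502850 in the ETS1 libraries. ETS1 itself went from 0.491 and 0.509 FPKM in the controls to 1.84 and 1.87 FPKM in the ETS1 libraries (limma adjusted p 0.000704). It reached the filter of that test, a mean of 1 FPKM, only through the ETS1 libraries. Of 6 epithelial markers, 3 reached a mean of 1 FPKM (KRT8, KRT18 and EPCAM), and CDH1, KRT7 and KRT19 lay under it. KRT8 was higher with ETS1 (log2 change 0.62, limma adjusted p 0.000591), KRT18 was lower (-0.29, adjusted p 0.00223) and EPCAM did not pass (-0.23, adjusted p 0.0525). CDH1 was at 0.571 and 0.567 FPKM in the controls and 1.08 and 0.916 FPKM with ETS1. Of 5 squamous markers, SOX2 had 2.72 and 3.13 FPKM in the controls and 3.52 and 3.82 FPKM with ETS1 (log2 change 0.25, limma adjusted p 0.0301). The other squamous markers, KRT5, KRT14, KRT6A and TP63, were all listed at 0 in the controls and reached at most 0.0165 FPKM with ETS1. The summed level of 6 fibroblast markers was 2.13 to 2.28 FPKM in the controls and 3.09 to 3.19 FPKM with ETS1, nearly all of it COL1A1. The leukocyte marker PTPRC lay at or under 0.0117 FPKM in every library. The endothelial markers VWF and CDH5 together stayed at or under 0.0506 FPKM. The part of other cell types in the results was not tested, and in bulk RNA fewer cells with a transcript and less of it per cell cannot be told apart.

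Because the overexpressed protein binds DNA through a GGAA core, the start sites of the regulators were searched for 2 longer ETS sequences, CCGGAAG and CAGGAAG, on both strands. The reference promoter windows (RefSeq, GRCh38.p14, 250 bases before to 50 after a start) covered 6 of the 10 genes with 17 windows: PTBP1, PTBP2, MBNL1, MBNL2, CELF1 and RBM47. A match lay in 3 of the 17, beside 21.8% of all 35116 windows. These were 1 window each of CELF1 (CCGGAAG, bases 229 to 235 of the window), PTBP1 (CCGGAAG, bases 271 to 277) and MBNL1 (CAGGAAG on the other strand, bases 158 to 164). They are shown because they hold the matches, beside the upstream sequence of PTBP2, which had no match in its window. RefSeq places these starts; all 4 lie inside the gene spans given below rather than at their ends, and of the 4 only the MBNL1 start falls in a GENCODE 29 transcript. Capitals mark the match, and each line reads 5′ to 3′ on the gene's strand.
CELF1, chr11:47553133-47553382, minus strand: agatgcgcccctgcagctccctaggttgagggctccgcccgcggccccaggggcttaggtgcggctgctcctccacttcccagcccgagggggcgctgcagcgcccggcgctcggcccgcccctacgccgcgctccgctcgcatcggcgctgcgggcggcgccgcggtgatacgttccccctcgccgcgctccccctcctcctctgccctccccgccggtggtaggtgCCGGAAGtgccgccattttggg
PTBP1, chr19:797994-798020, plus strand: cggcgcagccCCGGAAGcgcaggcggg
MBNL1, chr3:152268826-152268852, plus strand: ccgccctgggCTTCCTGgtggggctgg
PTBP2, chr1:96722388-96722637, plus strand: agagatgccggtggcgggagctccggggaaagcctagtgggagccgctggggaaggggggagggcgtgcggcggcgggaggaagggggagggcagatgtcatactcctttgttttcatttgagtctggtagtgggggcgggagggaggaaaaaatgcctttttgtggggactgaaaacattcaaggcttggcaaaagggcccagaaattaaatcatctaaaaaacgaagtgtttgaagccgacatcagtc
A match is a run of letters and not a measured binding site.

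Across the regulators, the ETS1 libraries had higher levels of QKI and MBNL2, each by a ratio of nearly 1.6, and of the scarce epithelial factor ESRP2, by a ratio of 4.15. RBFOX2, PTBP1, PTBP2 and CELF1 were higher by ratios between 1.09 and 1.18, and MBNL1 and RBM47 overlapped between the groups. Of the 10 genes, 7 had a mean of at least 1 FPKM over the 4 libraries and were tested, and ESRP1, ESRP2 and RBM47 lay under that filter. In limma on log2(FPKM + 1), with Benjamini-Hochberg adjustment over all 14306 genes tested and a threshold of 0.05, 6 of the 7 were called higher (QKI, MBNL2, RBFOX2, PTBP1, PTBP2 and CELF1) and 0 lower. In the same fit 30.7% of all tested genes were called higher and 28.4% lower. RBFOX2, PTBP1, PTBP2 and CELF1 had log2 changes under 0.2, as did 22.4% of all genes called. The median log2 change of the 7 was 0.18, beside 0.016 for all tested genes, and their median absolute change of 0.18 was beside one of 0.20. The count of 6 depended on 1 library and on the fit. It was also 6 in voom, where 4824 of 14306 genes were called higher. In the authors' deposited values, which include ESRP2, it was 7, with 25.3% of genes called higher. It was 2 without ETS1 replicate 2 (QKI and MBNL2), 3 under trimmed-mean scaling, and also 3 after a trend over gene length and GC content was taken out. In those 3 fits 19.9%, 27.5% and 31.7% of all genes tested were called higher.

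The groups did not overlap for 8 of the 10 regulators, always with both ETS1 values above both control values. Among all genes above 0 in at least 1 library, 31.7% were placed in this way, and among tested genes 43.1%. With 2 libraries against 2, the exact two-sided permutation test cannot give a p below 0.333, which is the value for each of these 8 genes, so the single-gene calls rest on limma's variance model.

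**Figure D1:**
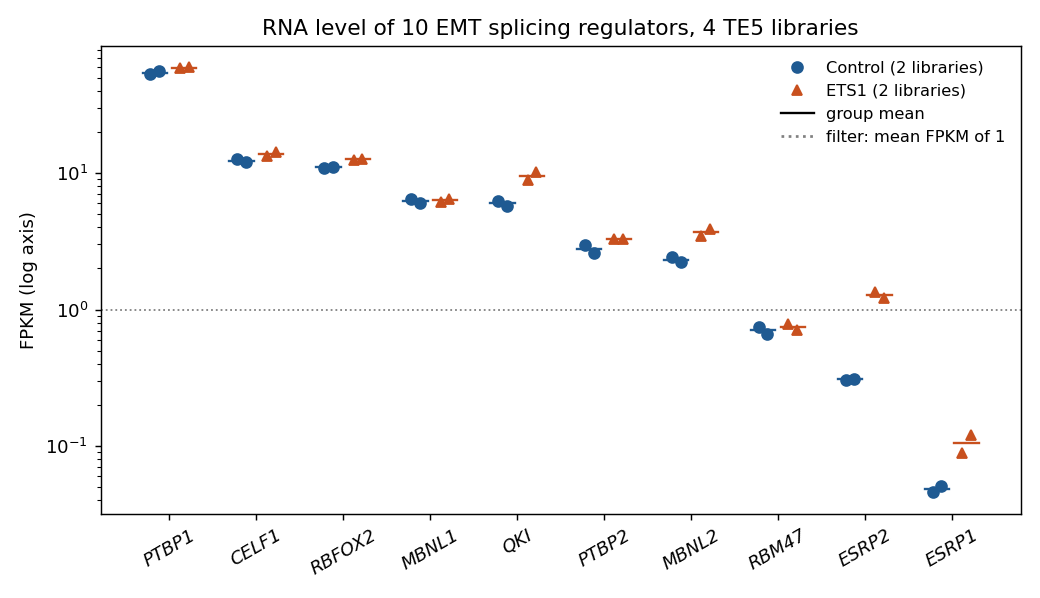
FPKM of the 10 splicing regulators on a log axis, with control libraries as circles, ETS1 libraries as triangles and short lines for group means; the dotted line marks the filter of a mean of 1 FPKM. Levels ran from 52.9 to 59.5 FPKM for PTBP1 down to 0.0457 to 0.120 FPKM for ESRP1, and ESRP2 shows the widest gap between groups.

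FPKM is per length, and the length used was close to that of all annotated exons of a gene together. It is not the length of the isoforms expressed, so close rankings between genes depend on it. By FPKM, PTBP1 was the most abundant regulator in every library and made up 53.0% to 57.6% of the summed FPKM of the 10. In the controls the order below it was CELF1, RBFOX2, MBNL1, QKI, PTBP2, MBNL2, RBM47, ESRP2 and ESRP1. MBNL1 (6.06 to 6.44 FPKM) and QKI (5.76 to 6.26 FPKM) overlapped there, and the ranges of all other neighbours were apart. In the ETS1 libraries the ranges of all neighbours were apart and 3 pairs of neighbours stood in the reverse order: QKI was above MBNL1, MBNL2 above PTBP2 and ESRP2 above RBM47. The summed level of the 10 genes was 95.5 and 96.1 FPKM in the controls and 108.7 and 112.3 FPKM in the ETS1 libraries.

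The epithelial factors ESRP1 and ESRP2 were the least abundant of the set in the controls. ESRP2 (GRCh38 chromosome 16, 68229111 to 68238102, minus strand; all gene positions are from GENCODE 29) was at 0.307 and 0.309 FPKM in the controls and 1.33 and 1.22 FPKM in the ETS1 libraries. Both ETS1 values were far above both controls, from 426 and 385 reads against 69 and 76 reads. Group means were 0.308 ± 0.0016 and 1.28 ± 0.0793 FPKM (SD, n = 2 each), and the ratio per sequenced read was 4.15 with an exact 95% interval of 3.48 to 4.99, which covers counting error only.

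ESRP2 had a mean under 1 FPKM and was not part of the main test. With no filter, limma gave a change of 0.80 on the log2(FPKM + 1) scale and an adjusted p of 0.0102, in a fit that called 10.3% of genes higher. In the authors' deposited table its log2 fold change was 1.99 (standard error 0.212, adjusted p 1.0e-20), and 25.3% of the genes with an adjusted p there were called higher. That table lists genes averaging 0.5 FPKM or more, and ESRP2 reached this only through its ETS1 libraries. Exons of NFATC3 on the opposite strand share 149 bases (2.68%) of the exon length of ESRP2. NFATC3 was at 1.40 and 1.41 FPKM in the controls and 1.77 and 1.78 FPKM in the ETS1 libraries, the use of strand in counting is not given in the sources used here, and the part of that overlap in the ESRP2 values was not tested.

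ESRP1, the other epithelial splicing factor (chromosome 8, 94641074 to 94707466, plus strand), was close to undetected. It had 0.0457 and 0.0511 FPKM in the controls and 0.0895 and 0.120 FPKM in the ETS1 libraries, from 9, 11, 25 and 33 reads in that order. The ETS1 values were the higher ones and did not overlap with the controls. The ratio per read was 2.15, with an exact 95% counting interval of 1.28 to 3.78. With no filter the limma change was 0.075 and the adjusted p 0.115, so the difference did not pass. The 55 tested protein-coding genes within 10 Mb of ESRP1 had a median log2 change of 0.18.

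QKI, which encodes the RNA-binding protein Quaking and sets mesenchymal exon choices in EMT (chromosome 6, 163414000 to 163578596, plus strand), had 6.26 and 5.76 FPKM in the controls and 8.93 and 10.1 FPKM in the ETS1 libraries. The groups were well apart, although the ETS1 libraries also differed from each other. The means were 6.01 ± 0.354 and 9.51 ± 0.828 FPKM (SD, n = 2 each), a ratio of 1.58. QKI thus rose by 0.58 on the log2 scale (SE 0.069, limma adjusted p 0.00246). A ratio of at least 1.5 was seen in 8.5% of genes with a mean of at least 0.5 FPKM. QKI was called higher under all 17 alternatives, with log2 changes from 0.38 with the length and GC trend removed to 0.66 in voom and without ETS1 replicate 1. Its annotated exons span 17368 bases, the longest of the 10.

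RBFOX2, which binds GCAUG-containing introns and promotes mesenchymal exons (chromosome 22, 35738736 to 36028425, minus strand), was at 10.92 and 11.03 FPKM in the controls and 12.5 and 12.7 FPKM in the ETS1 libraries. The difference was small and the replicates were close together. The ratio of means was 1.15, and RBFOX2 rose by 0.18 on the log2 scale (SE 0.030, limma adjusted p 0.00669). The call ended with the length and GC trend removed (0.080, adjusted p 0.0726) and without ETS1 replicate 2 (0.17, adjusted p 0.0547), and it held under the other 15 alternatives.

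Of the Muscleblind-like genes, MBNL2 rose and MBNL1 did not pass the test. MBNL2 (chromosome 13, 97221434 to 97394120, plus strand) had 2.41 and 2.24 FPKM in the controls and 3.46 and 3.91 FPKM in the ETS1 libraries, from 475 and 483 against 969 and 1082 reads. The means were 2.32 ± 0.119 and 3.69 ± 0.322 FPKM (SD, n = 2 each), a ratio of 1.59. The rise on the log2 scale was 0.49 (SE 0.066, limma adjusted p 0.00343). MBNL2 was called higher under all 16 alternatives that tested it, with changes from 0.30 after the length and GC trend was taken out to 0.67 in voom.

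MBNL1 (chromosome 3, 152243828 to 152465780, plus strand), the more abundant Muscleblind-like gene, had 6.44 and 6.06 FPKM in the controls and 6.13 and 6.49 FPKM in the ETS1 libraries. The groups overlapped. The log2 change was 0.011 with a limma adjusted p of 0.853, and the ratio per read was 1.01 with a 95% counting interval of 0.975 to 1.05. Its sign was not stable, being -0.014 under trimmed-mean scaling. It passed as lower in 2 alternatives, at -0.17 with the local chromosomal median removed (adjusted p 0.0241) and at -0.17 with the length and GC trend removed (adjusted p 0.0130). The 46 tested protein-coding genes within 10 Mb of it had a median log2 change of 0.18. The antisense gene MBNL1-AS1, at 0.547 to 0.691 FPKM, shares 11.4% of the exon length of MBNL1, and without strand the reads of the pair cannot be told apart. A further antisense gene, AC026347.1, shares 4.15% of the MBNL1 exon length and has no listed level.

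PTBP1, the widely expressed polypyrimidine-tract repressor (chromosome 19, 797075 to 812327, plus strand), had 52.9 and 55.4 FPKM in the controls and 58.9 and 59.5 FPKM in the ETS1 libraries. The ETS1 values were slightly higher, at a ratio of 1.09, and PTBP1 rose by 0.13 on the log2 scale (SE 0.033, limma adjusted p 0.0243). It was called under 12 of 17 alternatives, with changes of 0.28 under quantile normalization and 0.20 against its chromosomal neighbours. It lost the call with no filter (adjusted p 0.0706), under trimmed-mean scaling (adjusted p 0.0571) and without control replicate 1, ETS1 replicate 1 or ETS1 replicate 2 (adjusted p 0.0618, 0.0889 and 0.119).

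PTBP2, the neural relative whose transcript PTBP1 is known to keep low by exon skipping (chromosome 1, 96721665 to 96823738, plus strand), had 2.95 and 2.61 FPKM in the controls and 3.28 and 3.30 FPKM in the ETS1 libraries. The groups did not overlap, but the controls differed from each other by 12.2% of their mean. The ratio was 1.18, and the rise on the log2 scale 0.18 (SE 0.059, limma adjusted p 0.0470). This was the weakest of the 6 calls: it held under 6 of 16 alternatives, and the change was 0.0078 against its chromosomal neighbours (median of 52 genes within 10 Mb, 0.18) and -0.096 without the length and GC trend. Without control replicate 2 it was 0.12 (adjusted p 0.132). Without ETS1 replicate 1 or ETS1 replicate 2 the adjusted p was 0.141 and 0.156.

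CELF1, which binds GU-rich RNA in introns and in the tails of transcripts (chromosome 11, 47465933 to 47565569, minus strand), had 12.59 and 11.98 FPKM in the controls and 13.4 and 14.3 FPKM in the ETS1 libraries. The ratio was 1.12, and CELF1 rose by 0.16 on the log2 scale (SE 0.045, limma adjusted p 0.0355). It held under 10 of 17 alternatives and was lost, among others, under trimmed-mean scaling (adjusted p 0.0552), without control replicate 2 (adjusted p 0.109) and without ETS1 replicate 2 (adjusted p 0.171). With the length and GC trend removed its change was 0.065. The mitochondrial complex I gene NDUFS3 lies on the opposite strand and shares 234 exon bases with CELF1. Its level was 36.1 and 36.9 FPKM in the controls and 29.8 and 29.2 FPKM in the ETS1 libraries, and its part in the CELF1 values was not tested.

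RBM47 (chromosome 4, 40423267 to 40630875, minus strand) was scarce in all libraries, at 0.740 and 0.666 FPKM in the controls and 0.786 and 0.714 FPKM in the ETS1 libraries. The groups overlapped. The ratio per read was 1.07, with a 95% counting interval of 0.954 to 1.20 from 508 control and 732 ETS1 reads. Its log2 fold change in the authors' deposited table was 0.052 (adjusted p 0.754).

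**Figure D2:**
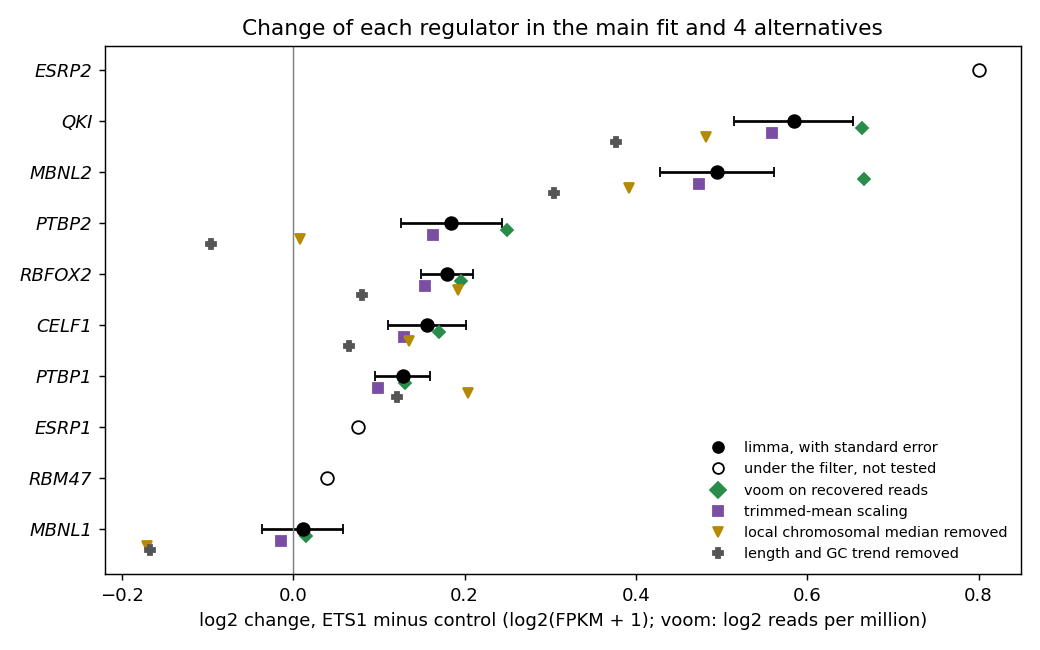
Log2 change of each regulator (ETS1 minus control, horizontal axis) in the main limma fit, with its standard error, and in 4 alternatives; open circles are genes under the filter, shown without a test. QKI and MBNL2 stay above 0.30 in every fit shown, while PTBP2 runs from -0.096 to 0.25.

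Replicates were compared with the noise that read counts alone would give. The ETS1 libraries differed by 12.3% of their mean for QKI, where 8911 and 9945 reads give a counting SD of 1.46%, and by 12.4% for MBNL2, where the counting SD was 4.42%. Replicate 2 was the higher one for both, and also for CELF1, which differed by 6.44%. RBFOX2 differed by 1.05% in the controls and 1.55% in the ETS1 libraries, within its counting noise of 2.08% and 1.67%. Over all tested genes the median replicate difference was 4.64% between controls and 3.69% between ETS1 libraries. PTBP2 differed by 12.2% in the controls, against a counting SD of 3.60%, and by 0.619% in the ETS1 libraries. For the scarce ESRP1, ESRP2 and RBM47 no replicate difference was more than 1.5 times its counting SD.

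**Figure D3:**
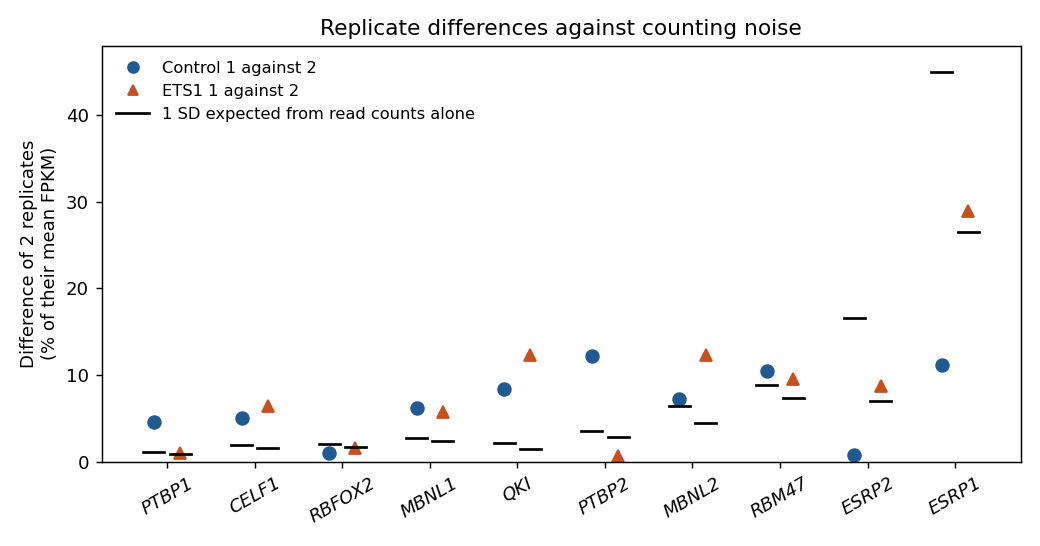
Difference between the 2 replicates of a group as a percentage of their mean FPKM for each regulator, with circles for control and triangles for ETS1; black bars mark 1 SD of the difference expected from read counts alone. QKI (8.34% and 12.3%) lies well above its bars, and ESRP1 lies under its bar in the controls (11.1%) and close to it in the ETS1 libraries (28.9%).

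Ratios of 2 regulators within a library do not depend on how the libraries are scaled to each other. These pairs were chosen with the values known. The MBNL2 level was 0.371 ± 0.0029 of the MBNL1 level in the controls and 0.584 ± 0.0272 in the ETS1 libraries (SD, n = 2 each), a shift of 1.57. The ratio of QKI to RBFOX2, both linked to mesenchymal exons, went from 0.547 ± 0.0363 to 0.757 ± 0.0576. PTBP2 to PTBP1 overlapped, at 0.0558 and 0.0472 in the controls and 0.0557 and 0.0555 in the ETS1 libraries. ESRP2 stood at 0.0491 and 0.0537 of the QKI level in the controls and at 0.150 and 0.121 in the ETS1 libraries, so the ratio of the epithelial to the mesenchymal factor was higher with ETS1. The exact permutation p was 0.333 for each ratio that did not overlap, the smallest possible, and 1 for PTBP2 to PTBP1.

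**Figure D4:**
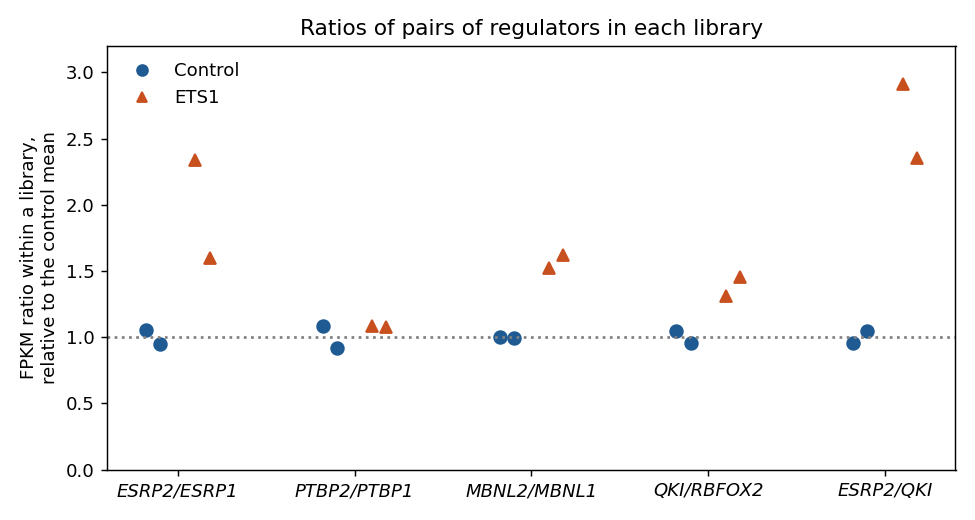
FPKM ratio of 5 pairs of regulators in each library, divided by the mean ratio of the controls, with circles for control and triangles for ETS1. The ETS1 libraries lie above both controls for all pairs except PTBP2 to PTBP1, where a control of 0.0558 tops both.

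The close relatives of the regulators were compared next. Of 11 paralogues, 3 were tested and 0 were called by limma, in the main fit and in voom at the same filter, and 0 had an unadjusted limma p under 0.05. The main fit called 30.7% of all tested genes higher and 28.4% lower, and voom called 9090 of 14306 in either direction, so a count over 3 genes says little. PTBP3 had 12.09 and 10.97 FPKM in the controls and 11.4 and 12.5 FPKM in the ETS1 libraries (log2 change 0.046, adjusted p 0.576), MBNL3 changed by 0.10 (adjusted p 0.273) and CELF2 by -0.041 (adjusted p 0.485). Without the length and GC trend, CELF2 (-0.19, adjusted p 0.00590) and PTBP3 (-0.19, adjusted p 0.0165) passed as lower, while PTBP3 passed as higher against its chromosomal neighbours (0.20, adjusted p 0.0358). The authors' deposited table lists 6 of the 11 and calls 2 of them lower (RBFOX3 and CELF3), where 25.9% of the genes with an adjusted p there were called lower. RBFOX3 reached that table's level of 0.5 FPKM only through its controls. Of the 8 under the filter, RBFOX3, CELF3, CELF4 and CELF5 lay between 0.353 and 0.982 FPKM, and RBFOX1, CELF6, RBM46 and A1CF at or under 0.0259 FPKM in every library.

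Genes whose exons are known to switch in EMT were then examined for their total RNA level. Of 25 such genes, 24 were tested, and 13 were called higher and 4 lower, beside 30.7% and 28.4% of all tested genes. Their median log2 change was 0.17, beside 0.016 for all tested genes. The higher count was 8 at a mean of at least 5 FPKM, where fewer genes were tested, and the lower count was 2 without ETS1 replicate 1 and 2 against chromosomal neighbours. FNIP1 rose by 0.49 and PLEKHA1 by 0.48, with limma adjusted p of 0.00186 and 0.00373. TJP1, which encodes a tight junction scaffold, changed by -0.23 (adjusted p 0.00885), and was named after its value was seen.

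The 4 best-known ESRP target transcripts differed among themselves. CD44, the hyaluronan receptor, was almost absent in the controls at 0.0320 and 0.0360 FPKM and lay at 0.416 and 0.383 FPKM in the ETS1 libraries. That is 13 and 16 reads against 240 and 218 reads, a ratio per read of 11.7 with a 95% counting interval of 8.05 to 17.7. CD44 lay under the filter, so the main fit did not test it. CTNND1, which encodes p120-catenin, rose from 13.0 ± 0.150 to 16.8 ± 0.321 FPKM (SD, n = 2 each; log2 change 0.35, limma adjusted p 0.00127). ENAH, an actin regulator, changed by 0.13 (adjusted p 0.0911) and FGFR2 by 0.022 (adjusted p 0.641). ENAH was called higher under 4 of 17 alternatives, among them voom (0.14, adjusted p 0.0186) and the authors' deposited values (0.11, adjusted p 0.0482). FGFR2 was at 6.89 and 6.61 FPKM in the controls and 6.94 and 6.80 FPKM in the ETS1 libraries, and trimmed-mean scaling turned its sign (-0.0034).

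Of 25 other RNA-binding factors linked to splicing in EMT, 22 were tested, and 4 were called higher and 5 lower, where the shares of all tested genes were 30.7% and 28.4%; their median log2 change was 0.010. The higher count was 2 with no filter, 2 without control replicate 2, 7 without control replicate 1, 8 in voom and 10 under quantile normalization. The lower count was 8 without the length and GC trend. KHDRBS3 fell by 0.78, from 10.3 ± 0.105 to 5.60 ± 0.129 FPKM (SD, n = 2 each, limma adjusted p 0.000474). It lies on chromosome 8, where the 75 tested protein-coding genes within 10 Mb had a median of -0.30, and with that median removed its change was -0.47. The core U2 snRNP gene SNRPA1 fell by 0.59 (adjusted p 0.000854) and TIA1, a U-rich RNA binder, rose by 0.59 (adjusted p 0.00156).

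Transcription factors of EMT and their opponents were compared last. Of 14 EMT regulators, 7 were tested, and 5 were called higher and 0 lower, against 30.7% and 28.4% over all tested genes; the median log2 change was 0.24. The count of 5 was 2 with no filter, 3 against chromosomal neighbours and 3 without ETS1 replicate 2. SNAI2 was at 4.86 and 4.54 FPKM in the controls and 26.9 and 28.4 FPKM in the ETS1 libraries (log2 change 2.33, limma adjusted p 0.000207). KLF5 rose by 0.32 (adjusted p 0.0105). With the local chromosomal median removed the change of KLF5 was 0.014 and its call ended (limma adjusted p 0.859). The KLF5 call was also lost with no filter (adjusted p 0.0585). ZEB1, a repressor of ESRP1, had 2.85 and 2.75 FPKM in the controls and 3.51 and 3.97 FPKM in the ETS1 libraries (log2 change 0.32, adjusted p 0.0104). It lost the call with no filter (adjusted p 0.0531) and without the length and GC trend (0.12, adjusted p 0.0998). GRHL2, an epithelial activator, was at most at 0.0173 FPKM in every library.

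**Figure D5:**
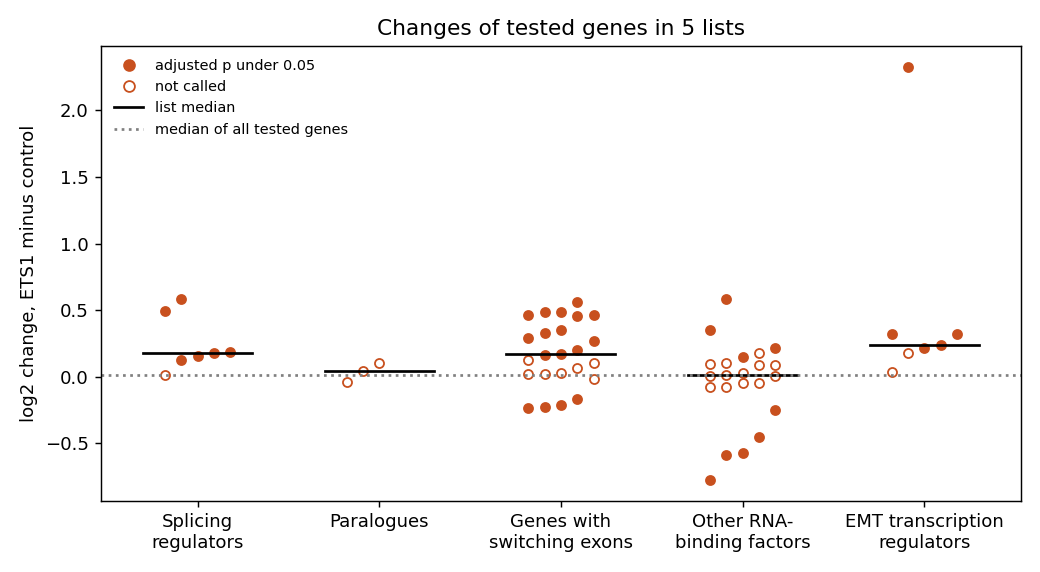
Log2 change (ETS1 minus control) of each tested gene in 5 lists, filled where the limma adjusted p was under 0.05; black bars are list medians and the dotted line is the median of all tested genes, 0.016. The 7 tested splicing regulators lie between 0.011 and 0.58, and SNAI2 stands at 2.33 among the EMT regulators.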

How the data were processed

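RNA was measured by bulk RNA-seq in 2 control and 2 ETS1 libraries. The submitters' processing notes name HISAT2, HTSeq, DESeq2 and hg38 (GRCh38), and the annotation and use of strand are not given in the sources used here. The authors deposited FPKM per gene name in 1 table. Their second table holds 16652 genes, those whose FPKM averages 0.5 or more; per the file headers it gives a mean normalized count (a signal averaged over the 4 libraries by the authors), the authors' log2 fold changes with standard errors, and the authors' p-value and adjusted p-value columns, the last missing for 969 genes.

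FPKM was taken as log2(FPKM + 1), which understates changes of low genes. The 14306 genes with a mean of at least 1 FPKM were fitted with limma 3.58.1 in R 4.3.3 with a group term, 2 residual and 2.84 prior degrees of freedom and an intensity trend. Adjustment was over all genes tested. Whole reads were recovered from the FPKM and mean normalized counts: 99.3% of values fell within 0.05 of a whole number. Reads of ESRP1 and CD44, absent from the second table, came from a search of gene lengths near the annotated one. Counting intervals cover counting error only. Positions come from GENCODE 29, matched by name for 84.0% of tested genes. The fit was tested on simulated data.

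The members and lists were chosen with earlier results of these data known. Named are all 10 members, ETS1, paralogues with a mean of at least 1 FPKM, CD44, FGFR2, CTNND1, ENAH, ZEB1 and GRHL2, and the 3 called genes with the largest absolute change of each other list. Some values that these rules would name are not reported here. The alternatives were another pseudocount, other filters, 2 scalings, the replicate number as a block, no variance trend, the authors' values, voom in limma fitted to the recovered reads, subtraction of the median change within 10 Mb or of a length and GC trend, and leaving out each library. A mean of at least 0.5 FPKM, with limma and with voom, was added after seeing the data.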

Additional observations from a re-analysis of the deposited data

How the results depend on the processing

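QKI and MBNL2 kept their direction and their call under all alternatives that tested them (17 and 16). Calls over all genes, 8451 in the main fit, were 5562 at a mean of at least 5 FPKM, where 8215 genes were tested, and ran from 5790 to 7680 when 1 library was left out. The regulators called higher, 6 in the main fit, were 3 under trimmed-mean scaling, 3 with the length and GC trend removed and 2 to 5 when 1 library was left out. Those called lower, 0 in the main fit, were 1 (MBNL1) with the local chromosomal median removed and 1 (MBNL1) with the length and GC trend removed, and 0 in each fit that left out 1 library. In voom the regulators called higher were again 6, and in the authors' values they were 7, with ESRP2 among them. The causes of these shifts were not tested, apart from the fewer genes or libraries used. Signs changed for MBNL1 under trimmed-mean scaling (-0.014), quantile normalization (-0.051), the authors' values (-0.0096), the local median (-0.17) and the length and GC trend (-0.17), and when 1 library was left out it ran from -0.027 to 0.049. With the length and GC trend removed, PTBP2 (-0.096), PTBP3 (-0.19), MBNL3 (-0.14), FGFR2 (-0.023) and ENAH (-0.055) also changed sign. With the local median removed MBNL3 was -0.12 and FGFR2 -0.075. FGFR2 was -0.0034 under trimmed-mean scaling and -0.032 under quantile normalization. Leaving out 1 library gave -0.0041 to 0.048 for FGFR2 and -0.019 to 0.11 for PTBP3. Same-numbered libraries did not deviate together (correlation of deviations -0.046 across genes). This single value cannot decide whether they were cultured or prepared together, which the labels do not give. With the replicate number as a block, 7283 genes and 4 regulators were called higher or lower, and PTBP2 (adjusted p 0.0725) and CELF1 (adjusted p 0.0737) lost their calls under this replicate block. Depth limits ESRP1, ESRP2 and RBM47 most, with 9 to 426 reads per library.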

Other observations

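Relatives of the regulators and of other listed factors that are known for neuronal expression were at low levels or close to undetected. They were picked from the lists above after their values were seen, so no theme is drawn from them. NOVA2 had 2.07 and 1.90 FPKM in the controls and 1.04 and 0.971 FPKM in the ETS1 libraries, a ratio of 0.508 (log2 change -0.57, limma adjusted p 0.00204). Its relative NOVA1 had 1.51 and 1.60 FPKM against 1.72 and 2.07 FPKM; limma did not call it (adjusted p 0.105), and the authors' deposited table calls it higher (log2 fold change 0.24, adjusted p 0.0378). RBFOX3, the neuronal relative of RBFOX2, had 0.693 and 0.692 FPKM in the controls and 0.353 and 0.363 FPKM in the ETS1 libraries. These were 282 and 308 reads in the controls and 204 and 207 in the more deeply sequenced ETS1 libraries. CELF3 stood at a ratio of 0.704, CELF5 at 0.853 and CELF4 at 1.26. RBFOX3 and these 3 lay under the main filter. RBFOX1, CELF6 and SRRM4 were at most at 0.0100 FPKM in every library.

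TWIST2, an EMT transcription factor under the main filter, had 0.294 and 0.308 FPKM in the controls and 1.17 and 1.02 FPKM in the ETS1 libraries, which rest on 14, 16, 79 and 68 reads in that order. Its log2 fold change in the authors' deposited table was 1.58 (adjusted p 0.000317); it reached that table's level of 0.5 FPKM only through the ETS1 libraries.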
